A study of Homo sapiens with 8 samples.

Results

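The arrays described here are the pair of HaCaT cells that carried an adenoviral vector for HRAS G12V, without and with TGF-beta3, 2 of the 8 arrays in the series. They were chosen by their titles, not by any measured value, and were set beside the same pair for LacZ, the control vector. HaCaT is a spontaneously immortalised line of human epidermal keratinocytes, grown here in medium with fetal bovine serum. All 6 adenovirus groups were infected as whole cultures: LacZ, HRAS G12V (a RAS locked in its active form) and HRAS N116Y (a dominant negative RAS), each left untreated or exposed for 24 h to TGF-beta3 at 5 ng/ml. A further 2 arrays of the series held siRNA-transfected cells without TGF-beta and were not used. The treatment states come from the titles, which match the field of the labels that records TGF-beta stimulation; the source field of the labels gives the opposite state for all 6 adenovirus samples. Each group held 1 array, so a ratio of a pair has no replicate error and no test, and precision is limited throughout by how few arrays there are.

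TGF-beta binds a pair of serine/threonine kinase receptors, which phosphorylate SMAD2 and SMAD3; these enter the nucleus with SMAD4 and switch target genes on or off. In keratinocytes the pathway is known for stopping the cell cycle and for inducing matrix, adhesion and protease genes. RAS relays signals from growth factor receptors to the RAF, MEK and ERK kinases, whose nuclear targets include the AP-1 and EGR transcription factors, and many promoters of TGF-beta targets hold sites for AP-1 as well as for SMADs.

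Signals are the deposited array intensities, scaled to a trimmed mean of 100 on each array, and a signal below 20 was set to 20 before a ratio was taken. A gene was counted in a pair when its signal reached 50 on at least 1 of the 2 arrays, and 8901 of 19775 genes were counted in the HRAS G12V pair. A gene that reaches 50 only with TGF-beta3 must be higher there, so counts over such genes describe these arrays only. Between 29.3% and 29.9% of the probe sets reached 50 on each of the 6 arrays, and the 3' to 5' ratio of the actin control probe sets lay between 1.16 and 1.39, with the highest value on the untreated HRAS G12V array. HRAS, read by 1 probe set, had signals of 109 untreated and 86.1 with TGF-beta3 on the HRAS G12V arrays, 316 and 287 on the LacZ arrays, and 67.1 and 58.1 on the HRAS N116Y arrays. It was thus lowest where an HRAS vector had been given. The sources used here do not say whether this probe set reads the vector's transcript, so it checks nothing about the vector. All 12 measured keratinocyte markers of 16 listed reached 50 on each of the 4 LacZ and HRAS G12V arrays. Their summed signal was 45133 untreated and 71108 with TGF-beta3 on the HRAS G12V arrays, and 37811 and 67927 on the LacZ arrays. Of 9 fibroblast markers, COL1A1 alone reached 50, on the TGF-beta3 arrays; the list summed to 114 and 338 with HRAS G12V and 113 and 256 with LacZ. Of 6 measured melanocyte markers 1 reached 50 on each of the 4 arrays, and 7 measured leukocyte and 7 measured endothelial markers stayed under 50 on all 4.

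Of the 8901 genes counted, 492 (5.53%) were at least 2-fold higher and 404 (4.54%) at least 2-fold lower with TGF-beta3, and the median log2 ratio was -0.02. In these whole cultures, fewer cells expressing a gene and less RNA per cell cannot be told apart. In the LacZ pair 377 of 8879 genes (4.25%) were higher and 387 (4.36%) lower, and in the HRAS N116Y pair 4.9% and 4.95%. The 2-fold counts of gene lists given below are to be read beside these shares. Where a second probe set of the same gene could be read in the HRAS G12V pair, it pointed the same way for 187 of 191 higher genes and for 140 of 141 lower genes. It was itself at least 2-fold for 139 and 86 of them.

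The 12 highest ratios above the floor belonged to genes of several kinds. MMP9, a gelatinase, had signals of 59.8 untreated and 2292 with TGF-beta3 in cells with HRAS G12V, a 38.3-fold difference, against 45.5 and 1464 with LacZ, which is 32.2-fold. PRR9, a proline-rich protein gene of the epidermal differentiation complex, went from 21.3 to 1034, 48.6-fold, and with LacZ from 18.5, which is under the floor, to 659.7, at least 33.0-fold. MMP10 (stromelysin 2) was under the floor without TGF-beta3 on all 3 untreated arrays and reached 981 with HRAS G12V, 739 with LacZ and 344 with HRAS N116Y, so it was at least 49.1-fold, 36.9-fold and 17.2-fold higher. For these 3 genes the order of the TGF-beta3 signals was the same: HRAS G12V highest, LacZ next and HRAS N116Y lowest. FN1, which encodes fibronectin, showed no such order. Its signal was 351.2 untreated and 6032 with TGF-beta3 with HRAS G12V, 348 and 5793 with LacZ and 434 and 5928 with HRAS N116Y, and its log2 ratios of 4.10, 4.06 and 3.77 lay close together. The next in order were NEDD9, a focal adhesion scaffold, at 10.1-fold, the protease inhibitor SERPINE2 at 10.1-fold, LTBP2, which binds fibrillin microfibrils, at 9.78-fold and the semaphorin SEMA3C at 9.72-fold. ANTXR2, a matrix-binding receptor, the cornified envelope precursor SPRR1B, the metalloproteinase ADAMTS6, the feedback inhibitor PMEPA1 and the fibronectin receptor subunit ITGA5 lay between 9.38-fold and 8.31-fold.

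A further group was under the floor without TGF-beta3 and reached 100 with it, 14 genes in all. Besides MMP10 they included MYH16, a myosin heavy chain pseudogene in humans (at least 10.6-fold), CDK5R1, an activator of CDK5 (at least 8.67-fold), the chloride channel family gene CLIC3 (at least 7.26-fold), the cytokine IL11 (at least 7.10-fold) and XYLT1, which starts glycosaminoglycan chains (from under 20 to 140.0). On the untreated LacZ array MYH16, IL11 and XYLT1 were also under 20, and CDK5R1 and CLIC3 stood at 21.4 and 22.3.

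**Figure D1:**
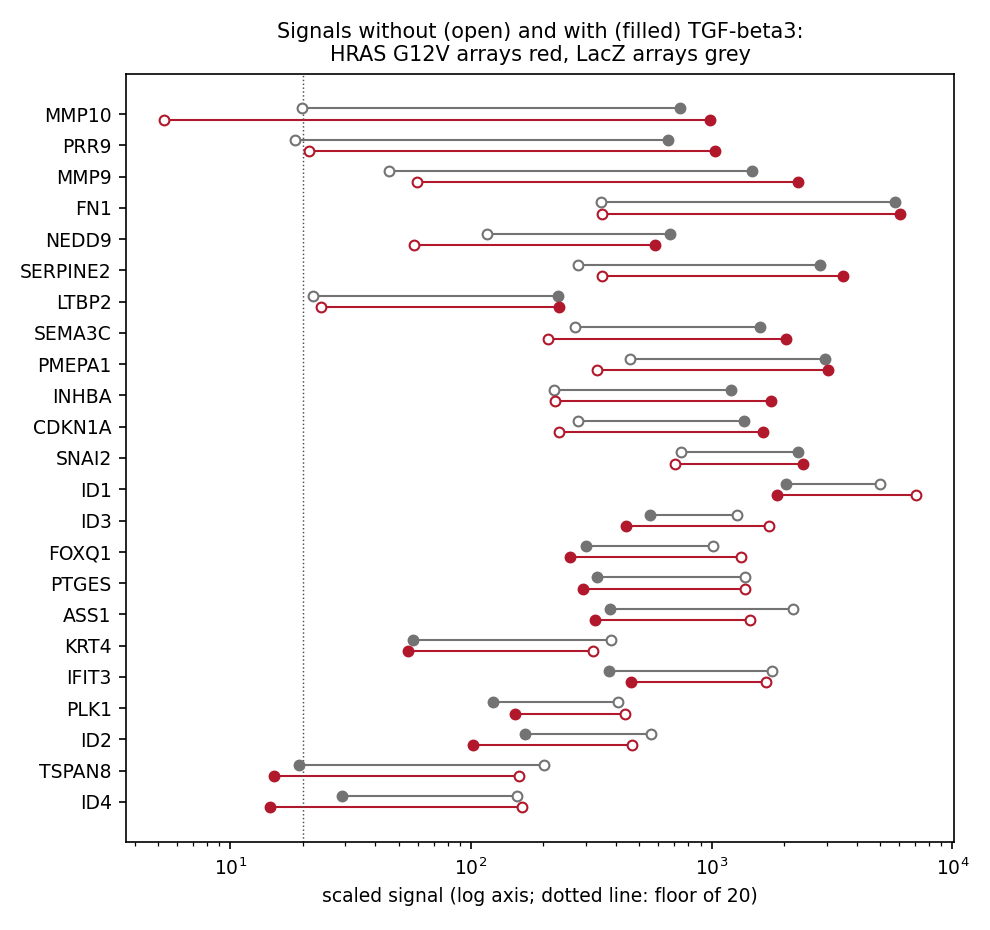
Scaled signal (log axis) of 12 genes that were higher and 11 that were lower with TGF-beta3 in cells with HRAS G12V; open circles are untreated arrays and filled circles TGF-beta3 arrays, red for HRAS G12V and grey for LacZ, 1 array each, with a dotted line at the floor of 20. The red and grey lines run the same way for every gene shown.

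The 12 lowest ratios above the floor, and genes that were under it with TGF-beta3, were as varied. ID4, an inhibitor of basic helix-loop-helix factors, was under the floor with TGF-beta3 on the HRAS G12V array (163 untreated, 14.6 treated, at least 8.14-fold lower) and stood at 156 and 29.0 with LacZ. With HRAS N116Y its signals were 180.2 and 114, a far smaller difference. The tetraspanin TSPAN8 went from 158 to 15.2, at least 7.92-fold lower, and from 202 to 19.3 with LacZ. KRT4, a mucosal keratin, was 5.88-fold lower (321 and 54.6), with 381 and 57.4 on the LacZ arrays. Others among the 12 lowest were PEG10, a retrotransposon-derived gene (5.51-fold lower), the forkhead factor FOXQ1 (5.11-fold), the prostaglandin E synthase PTGES (4.72-fold), the phospholipase and acyltransferase PLAAT4 (4.71-fold), ID2 (4.57-fold), SCEL (sciellin, 4.39-fold) and ASS1, the argininosuccinate synthase (4.37-fold). MND1, a meiotic recombination gene, the guanine nucleotide exchange factor VAV3 and TTF2, a transcription termination factor, lay between 4.29-fold and 4.21-fold. The lowest ratio of all above the floor was that of EEF2KMT, a methyltransferase acting on elongation factor 2, which is described further on.

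The SMAD feedback inhibitors, which limit TGF-beta signalling, had 5 of 10 counted genes at least 2-fold higher and 1 lower, of 11 listed. Over all counted genes the shares were 5.53% and 4.54%. PMEPA1 had signals of 333 and 3041 with HRAS G12V, 459.8 and 2965 with LacZ, and 341 and 3073 with HRAS N116Y, giving log2 ratios of 3.19, 2.69 and 3.17. The SMAD corepressor SKIL was 3.91-fold higher, the inhibitory SMAD7 3.58-fold, the ubiquitin ligase SMURF1 2.24-fold and the pseudoreceptor BAMBI 2.07-fold. SMAD6, which acts mainly on BMP signalling, was 2.04-fold lower, at 62.3 and 30.5. SMURF2 had a log2 ratio of 0.98, TGIF1 of 0.36, TGIF2 of -0.53 and SKI of -0.19, all within 2-fold, and LDLRAD4 lay under the floor on all 6 arrays. The list's median log2 ratio was 1.02 with HRAS G12V, 0.95 with LacZ and 0.91 with HRAS N116Y. SKI, a dim gene, was the 1 member whose response was below that with LacZ. Its untreated signal was 21.2 with LacZ and 69.5 with HRAS G12V. This order moved with the processing: with probe sets averaged 5 of 8 counted members lay above LacZ, where 51.1% of all counted genes did.

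Of 32 listed SMAD-induced genes 29 were measured and 28 counted. With HRAS G12V 23 of the 28 were at least 2-fold higher and 0 lower, against 22 and 1 with LacZ. Over all counted genes the shares were 5.53% and 4.54% with HRAS G12V and 4.25% and 4.36% with LacZ. The median log2 ratio was 1.95 with HRAS G12V, 1.63 with LacZ and 1.34 with HRAS N116Y, while the medians over all 8901 counted genes were -0.02, -0.01 and -0.004. In 21 of the 28 genes the response with HRAS G12V was above that with LacZ, where 51.1% of all counted genes had that order. TGFBI, a matrix protein of the keratinocyte surface, was 5.58-fold higher with HRAS G12V (2188 and 12206) and 7.11-fold with LacZ (1682 and 11965). The CDK inhibitor CDKN1A went from 231 to 1634 with HRAS G12V, from 279 to 1362 with LacZ and from 217 to 985 with HRAS N116Y. CDKN2B, the other classical CDK inhibitor of the TGF-beta response, had a log2 ratio of 2.40 with HRAS G12V but lower signals there (75.6 and 399) than with LacZ (142 and 683) or HRAS N116Y (283 and 2215). BHLHE40, a helix-loop-helix repressor, and NEDD9 shared a feature. Their TGF-beta3 signals with HRAS G12V (1309 and 584) were close to those with LacZ (1356 and 672), but their untreated signals were lower (231 against 461, and 57.9 against 117). Their larger ratios with HRAS G12V, by 0.95 and 0.81 on the log2 scale, thus lay mostly in the untreated arrays.

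Among ligands, receptors and SMADs themselves, 1 of 14 counted genes was at least 2-fold higher and 1 lower, beside 5.53% and 4.54% of all counted genes. BMPR2, a type II BMP receptor, was 2.63-fold higher with HRAS G12V and 3.44-fold with LacZ. Its further probe sets disagree on the order, with log2 ratios of 0.835 against 0.487, 1.501 against 1.202 and 0.668 against 1.071. TGFB1, the first TGF-beta ligand gene, had a log2 ratio of 0.62, and SMAD3, the receptor-activated SMAD, one of 0.22 with HRAS G12V, 0.81 with LacZ and -0.53 with HRAS N116Y. A further probe set of SMAD3 had the opposite order, with 1.07 with HRAS G12V and 0.45 with LacZ. Its other probe sets kept the order, with -0.051 against 0.128 and 0.314 against 0.443. In the list of BMPs, activins and their inhibitors INHBA, the activin A subunit, was 7.87-fold higher (224 and 1762) and 5.44-fold with LacZ (221 and 1202). FSTL3, which binds activin, was 4.14-fold higher.

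Most of the counted DNA replication and mitosis genes were at least 2-fold lower with each of the 3 vectors. Of 30 counted DNA replication genes 22 were at least 2-fold lower in the HRAS G12V pair, 22 in the LacZ pair and 28 in the HRAS N116Y pair, with median log2 ratios of -1.13, -1.19 and -1.56. Of 29 mitosis genes 23, 21 and 29 were lower, with medians of -1.12, -1.21 and -1.80. Over all counted genes 4.54%, 4.36% and 4.95% were at least 2-fold lower in the same order. PLK1, the polo-like kinase of mitosis, had signals of 437 and 153 with HRAS G12V, 408 and 124 with LacZ and 404 and 90.0 with HRAS N116Y. ORC1, a subunit of the origin recognition complex, had log2 ratios of -1.54, -1.49 and -2.55 in the same order, and CENPE, a kinetochore motor, -1.49, -1.28 and -2.12. Whether the cell cycle genes differed in response between HRAS N116Y and the other vectors was not tested, as each ratio rests on 1 pair.

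Single members of these lists stood apart in the HRAS G12V pair. MCM5, a subunit of the replicative helicase, had signals of 261 and 214 with HRAS G12V and 418 and 159 with LacZ, a response difference of 1.11. Its second probe set, however, gave log2 ratios of -1.14 with HRAS G12V and -0.85 with LacZ, so the probe sets disagree. The cell cycle factor E2F2 went the other way, with 254 and 61.2 against 167 and 76.4, a difference of -0.93. The growth genes that TGF-beta represses had 5 of 9 at least 2-fold lower with HRAS G12V, 6 with LacZ and 4 with HRAS N116Y. Over all counted genes the shares were 4.54%, 4.36% and 4.95%. The list's median log2 ratios were -1.23, -1.30 and -0.96, and 4 of the 9 lay above LacZ, where 51.1% of all counted genes did. In this list ID1 was 3.78-fold lower with HRAS G12V (7075 and 1874), 2.45-fold with LacZ (4986 and 2031) and 2.05-fold with HRAS N116Y. ID3 was 3.93-fold, 2.30-fold and 1.55-fold lower in the same order, and ID2 4.57-fold, 3.34-fold and 1.67-fold. The cyclin gene CCNA2 had the opposite order, at 2.38-fold lower with HRAS G12V, 3.16-fold with LacZ and 3.11-fold with HRAS N116Y, but its second probe set gave log2 ratios of -1.55 with HRAS G12V and -1.42 with LacZ. MYC had a log2 ratio of -0.82 with HRAS G12V, -0.47 with LacZ and -0.19 with HRAS N116Y, within 2-fold in all 3 pairs. CDC25A, a phosphatase that activates CDKs, had a log2 ratio of -0.54 with HRAS G12V and -1.37 with LacZ, but a second probe set gave -1.78 and -1.69.

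**Figure D2:**
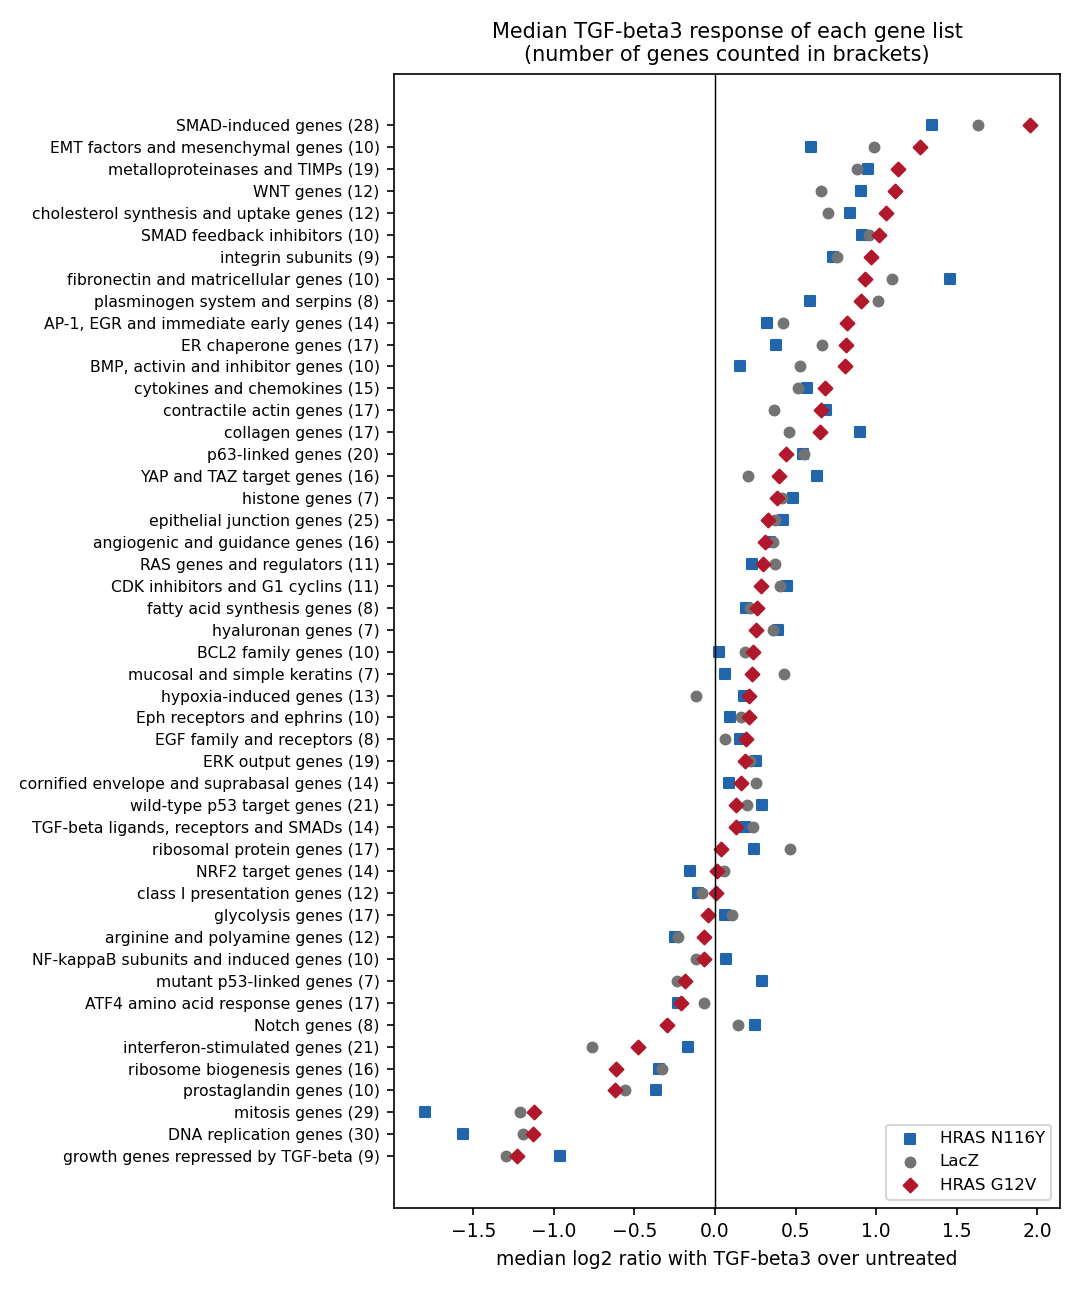
Median log2 ratio with TGF-beta3 over untreated for each gene list with at least 7 genes counted in the HRAS G12V pair (horizontal axis), with red diamonds for HRAS G12V, grey circles for LacZ and blue squares for HRAS N116Y, 1 pair of arrays each. The SMAD-induced genes stand highest in the HRAS G12V pair at 1.95, and the mitosis and DNA replication genes lie near -1.1 there and lowest with HRAS N116Y.

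The collagen, integrin and metalloproteinase genes that passed 2-fold with HRAS G12V were all higher. Of 17 counted collagen and collagen-modifying genes 6 reached 2-fold in the HRAS G12V pair, all of them higher, beside 5.53% of all counted genes. COL1A1 had signals of 39.7 and 288 with HRAS G12V, 45.0 and 164 with LacZ and 50.8 and 253 with HRAS N116Y; a second, dim probe set did not follow, with log2 ratios of -0.02, 0.36 and -0.22. COL5A1 was at least 5.57-fold higher and COL7A1, the anchoring fibril collagen of the skin, 2.81-fold. LAMB3, a chain of laminin 332 in the epidermal basement membrane, went from 1509 to 7509.5 with HRAS G12V, from 1426 to 6588 with LacZ and from 1422 to 3326 with HRAS N116Y. The matricellular genes CCN2 and CCN1 were at least 6.37-fold and 3.72-fold higher. Of 9 counted integrin subunits 4 were at least 2-fold higher with HRAS G12V, 2 with LacZ and 4 with HRAS N116Y. Over all counted genes the shares were 5.53%, 4.25% and 4.9%.

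ITGA5 carried the largest integrin ratio. Its signals were 42.1 and 349.6 with HRAS G12V, 97.5 and 353 with LacZ and 118 and 282 with HRAS N116Y. The TGF-beta3 signals with HRAS G12V and LacZ were almost equal, so the whole response difference of 1.20 lay in the lower untreated signal with HRAS G12V. ITGB4, the hemidesmosome beta subunit, was 2.32-fold higher against 1.69-fold with LacZ, ITGA2 2.17-fold against 1.76-fold and ITGA6 2.17-fold against 2.37-fold. The further probe sets of ITGB4 and ITGA6 did not keep the order of the responses, though they kept the direction.

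Of 19 counted metalloproteinases and TIMPs 10 were at least 2-fold higher with HRAS G12V and 0 lower. Over all counted genes the shares were 5.53% and 4.54%. Besides MMP9 and MMP10, the collagenase MMP1 was 7.97-fold higher (118 and 936), with 83.9 and 531 on the LacZ arrays and 39.2 and 160.2 on the HRAS N116Y arrays. ADAMTS6 went from 49.4 to 452 with HRAS G12V and from 79.3 to 329 with LacZ. In the plasminogen system the urokinase gene PLAU was 6.27-fold higher (462 and 2897) against 3.65-fold with LacZ (554 and 2022). Its receptor gene PLAUR was 3.93-fold higher (312 and 1226) against 2.42-fold with LacZ (542 and 1309). The TGF-beta3 signal of PLAUR was thus not higher with HRAS G12V, and its larger ratio lay in the lower untreated signal. The second probe set of PLAU gave log2 ratios of 2.57 and 1.73, and both further probe sets of PLAUR also had the larger ratio with HRAS G12V.

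To show the DNA around the start sites of genes at both ends of the response, promoters were taken from RefSeq (GRCh38.p14), each 250 bases before to 50 bases after the gene's start. Of 492 higher genes 392 had a promoter in that table and of 404 lower genes 321. Motifs were searched on both strands: the AP-1 site TGANTCA, the SMAD palindrome GTCTAGAC, a site of the serum response factor SRF, whose letters are the capitals in the EGR1 promoter, and the cell cycle homology region TTTGAA. Matches of different motifs were allowed to overlap. MMP10 is shown as the gene with the largest lower bound and ITGA5 for its response difference, both with an AP-1 match in capitals, EGR1 with its SRF match and PLK1 with its TTTGAA match. MMP10 is at chr11:102780579-102780878 on the minus strand with the match starting at -67 from the gene's start, ITGA5 at chr12:54419217-54419516 on the minus strand with the match at -6, EGR1 at chr5:138465229-138465528 on the plus strand with the match at -105, and PLK1 at chr16:23678639-23678938 on the plus strand with the match at -29.
MMP10: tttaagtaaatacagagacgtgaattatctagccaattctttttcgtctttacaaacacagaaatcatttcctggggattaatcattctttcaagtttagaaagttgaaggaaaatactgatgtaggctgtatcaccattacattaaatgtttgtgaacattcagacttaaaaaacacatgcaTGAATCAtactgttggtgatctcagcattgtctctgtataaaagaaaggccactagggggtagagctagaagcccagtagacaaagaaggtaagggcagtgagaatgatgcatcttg
ITGA5: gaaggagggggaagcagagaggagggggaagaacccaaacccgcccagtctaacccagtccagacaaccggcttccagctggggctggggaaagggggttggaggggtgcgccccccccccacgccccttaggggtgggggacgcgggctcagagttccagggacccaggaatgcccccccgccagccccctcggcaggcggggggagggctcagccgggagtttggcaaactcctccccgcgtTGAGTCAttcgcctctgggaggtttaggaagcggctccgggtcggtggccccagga
EGR1: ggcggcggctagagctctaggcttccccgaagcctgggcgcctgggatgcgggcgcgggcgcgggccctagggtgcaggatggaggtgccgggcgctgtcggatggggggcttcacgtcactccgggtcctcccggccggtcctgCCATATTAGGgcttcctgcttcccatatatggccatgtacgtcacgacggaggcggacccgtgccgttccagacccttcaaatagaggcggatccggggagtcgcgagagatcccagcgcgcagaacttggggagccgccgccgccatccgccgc
PLK1: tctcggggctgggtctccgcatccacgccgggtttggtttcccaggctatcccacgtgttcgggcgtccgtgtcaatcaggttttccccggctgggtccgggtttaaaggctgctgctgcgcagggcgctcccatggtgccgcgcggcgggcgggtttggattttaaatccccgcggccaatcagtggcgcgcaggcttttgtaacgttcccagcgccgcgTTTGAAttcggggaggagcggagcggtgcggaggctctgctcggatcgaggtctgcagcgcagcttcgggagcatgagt

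The AP-1 letters were found in 9.18% of the promoters of higher genes, 4.98% of those of lower genes, 4.46% of those of all counted genes and 7.76% of all 27305 promoters of the table. The TTTGAA letters were found in 24.6% of lower, 8.42% of higher, 10.0% of counted and 15.4% of all promoters. The SMAD palindrome was found in 1 promoter of each direction (0.255% and 0.312%) against 0.134% of counted genes and 0.201% of all promoters. The SRF letters were in 2 promoters of higher genes (0.51%) and 0 of lower genes, against 0.0537% and 0.0366%. These shares were not tested, and a match says only that the letters occur in the window.

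Of 10 counted EMT factors and mesenchymal genes 6 were at least 2-fold higher with HRAS G12V, 5 with LacZ and 4 with HRAS N116Y. The list's median log2 ratios were 1.27, 0.99 and 0.60. Over all counted genes 5.53%, 4.25% and 4.9% were at least 2-fold higher in the same order. The transcription factors SOX4, SOX9, SNAI2 and ETS1 were 4.25-fold, 3.76-fold, 3.39-fold and 3-fold higher. NT5E, the surface nucleotidase CD73, had signals of 348 and 903 with HRAS G12V, 384 and 524 with LacZ and 152 and 125 with HRAS N116Y. It was thus highest with HRAS G12V and TGF-beta3, and both further probe sets had the larger response with HRAS G12V as well. Among 25 counted epithelial junction genes 5 reached 2-fold, all of them higher. They included the cadherin CDH3 (2.21-fold), desmocollin DSC2 (2.27-fold) and plakophilin PKP1 (2.44-fold). CLDN4, a tight junction claudin, had signals of 371 and 1245 with HRAS G12V, 591 and 770.5 with LacZ and 396 and 566 with HRAS N116Y. Its untreated signal with HRAS G12V was below, and its TGF-beta3 signal above, the matching LacZ signal. Of 17 contractile actin genes 3 were at least 2-fold higher: TAGLN (3.60-fold), the tropomyosin TPM1 (3.31-fold) and CALD1 (2.80-fold).

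Keratinocyte differentiation genes lay in both directions. SPRR1B had signals of 139.5 and 1289 with HRAS G12V and 210.0 and 1171 with LacZ, and SPRR1A 67.5 and 359 against 81.2 and 324. Filaggrin (FLG) was 3.33-fold lower and SCEL 4.39-fold lower. KRT13, a suprabasal keratin of mucosa, was 2.14-fold lower with HRAS G12V and 1.53-fold with LacZ. The basal keratins KRT5 and KRT14 had log2 ratios of -0.09 and 0.63.

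The ERK output genes, which ERK signalling is known to raise, numbered 23, of which 19 were counted. In the HRAS G12V pair 5 of these 19 were at least 2-fold higher and 0 lower, beside 5.53% and 4.54% of all counted genes. EPHA4, an ephrin receptor, was 5.20-fold higher, IER3, an immediate early survival gene, 3.17-fold and the ETS factor ETV5 2.53-fold. The ERK phosphatase DUSP6 was 2.45-fold higher and the protease inhibitor TFPI2 2.21-fold. Further probe sets of ETV5 and TFPI2 fell short of 2-fold with HRAS G12V. Their log2 ratios were 0.334 and 0.537 for ETV5, both dim, and 0.542 for TFPI2. EPHA4 had its lowest signals with HRAS G12V (31.8 and 165.5), against 60.5 and 248.7 with LacZ and 81.3 and 380.2 with HRAS N116Y. Its further probe sets had response differences from LacZ of -0.578, -0.558 and 0.23, so they disagree on the order. DUSP6 had signals of 785 and 1922 with HRAS G12V, 714 and 1041 with LacZ and 168 and 336 with HRAS N116Y. Its other probe sets gave log2 ratios of 0.77 and 1.07 with HRAS G12V and 0.69 and 0.91 with LacZ, a smaller gap. IER3 had signals of 1678 and 5313, 1583 and 3975, and 904 and 1783 in the same order. Without TGF-beta3 the HRAS G12V and LacZ arrays were close for this list, with a median log2 ratio of 0.10 between them, and with TGF-beta3 it was 0.19.

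Of these 19 genes 16 had a response above that with LacZ, against 51.1% of all counted genes, although the median response was 0.18 with HRAS G12V and 0.22 with LacZ. The differences were small, with a median of 0.334 per gene. With a floor of 50 the count was 15 of 19 and the median 0.125, and with probe sets averaged 14 of 19 and 0.173. The AP-1 subunit FOSL1 had log2 ratios of 0.07 with HRAS G12V, -0.28 with LacZ and -0.73 with HRAS N116Y, DUSP5 -0.04, -0.50 and -1.64, and CCND1 (cyclin D1) 0.79, 0.42 and 0.70. The phosphatase gene DUSP4 and the ERK inhibitors SPRED1 and SPRED2 had response differences of 0.00, 0.09 and 0.02. EMP1, DUSP4 and MYC were the 3 whose response was not above LacZ. SPRY1, SPRY4, SPRED3 and ETV1 were listed but stayed under 50 in the pair and were not counted.

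Immediate early genes had 5 of 14 counted members at least 2-fold higher with HRAS G12V, 5 with LacZ and 1 with HRAS N116Y. Over all counted genes the shares were 5.53%, 4.25% and 4.9%. EGR1 had signals of 178 and 1080.1 with HRAS G12V, 129 and 473 with LacZ and 118 and 104 with HRAS N116Y. EGR3 was under the floor untreated with all 3 vectors and reached 117, 54.9 and 26.7 with TGF-beta3. JUN had log2 ratios of 1.58, 1.28 and 1.38. HBEGF, an EGF receptor ligand, went from 154 to 766 with HRAS G12V, from 156 to 486 with LacZ and from 95.5 to 118 with HRAS N116Y. EGR1, EGR3 and HBEGF thus had their highest signal on the array with HRAS G12V and TGF-beta3, and with HRAS N116Y the log2 ratios of EGR1 and HBEGF were -0.19 and 0.31. For HBEGF the second probe set kept this order, with log2 ratios of 1.94, 1.66 and 0.69. For EGR1 it did not: the second probe set gave 1.84 with HRAS G12V, 2.86 with LacZ and -0.28 with HRAS N116Y.

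Of 15 counted cytokine and chemokine genes and their receptors 7 were at least 2-fold higher with HRAS G12V, 5 with LacZ and 4 with HRAS N116Y. Over all counted genes the shares were 5.53%, 4.25% and 4.9%. IL1B had signals of 309 and 889 with HRAS G12V, 193 and 394 with LacZ and 106 and 117 with HRAS N116Y. IL1A was 3.41-fold, 3.21-fold and 1.99-fold higher. LIF, a cytokine of the interleukin-6 family, went from 59.9 to 233 with HRAS G12V and from 103 to 183 with LacZ, a response difference of 1.14. IL11, of the same family, reached 142 with HRAS G12V, 111 with LacZ and 27.8 with HRAS N116Y from signals under the floor. The chemokine CXCL8 had log2 ratios of 0.68, 0.05 and 1.14. In 13 of the 15 genes the response was above that with LacZ, against 51.1% of all counted genes. The cyclooxygenase gene PTGS2 was 7.62-fold higher (131 and 997) against 4.09-fold with LacZ (237 and 969.5), and HPGD, which degrades prostaglandins, was 2.60-fold lower.

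The 12 measured genes of cholesterol synthesis and uptake, of 18 listed, all had a larger response with HRAS G12V than with LacZ, where 51.1% of all counted genes did. With HRAS G12V 6 of them were at least 2-fold higher, with LacZ 2, and with HRAS N116Y 5. Over all counted genes the shares were 5.53%, 4.25% and 4.9%. The list's medians were 1.06, 0.70 and 0.84. HMGCS1, the HMG-CoA synthase, had signals of 659 and 2219 with HRAS G12V, 887 and 2160.4 with LacZ and 567 and 1245 with HRAS N116Y. The sterol desaturase SC5D was 2.83-fold higher against 1.88-fold, the methylsterol oxidase MSMO1 2.30-fold against 1.69-fold and the sterol carrier STARD4 2.63-fold against 2.46-fold. Each difference was small, with a median of 0.34, and lay in both arms: the list's median ratio of HRAS G12V to LacZ was -0.22 untreated and 0.10 with TGF-beta3. The genes of this pathway are regulated together, so they are not 12 independent readings. All counted members kept this order in each alternative of processing.

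**Figure D3:**
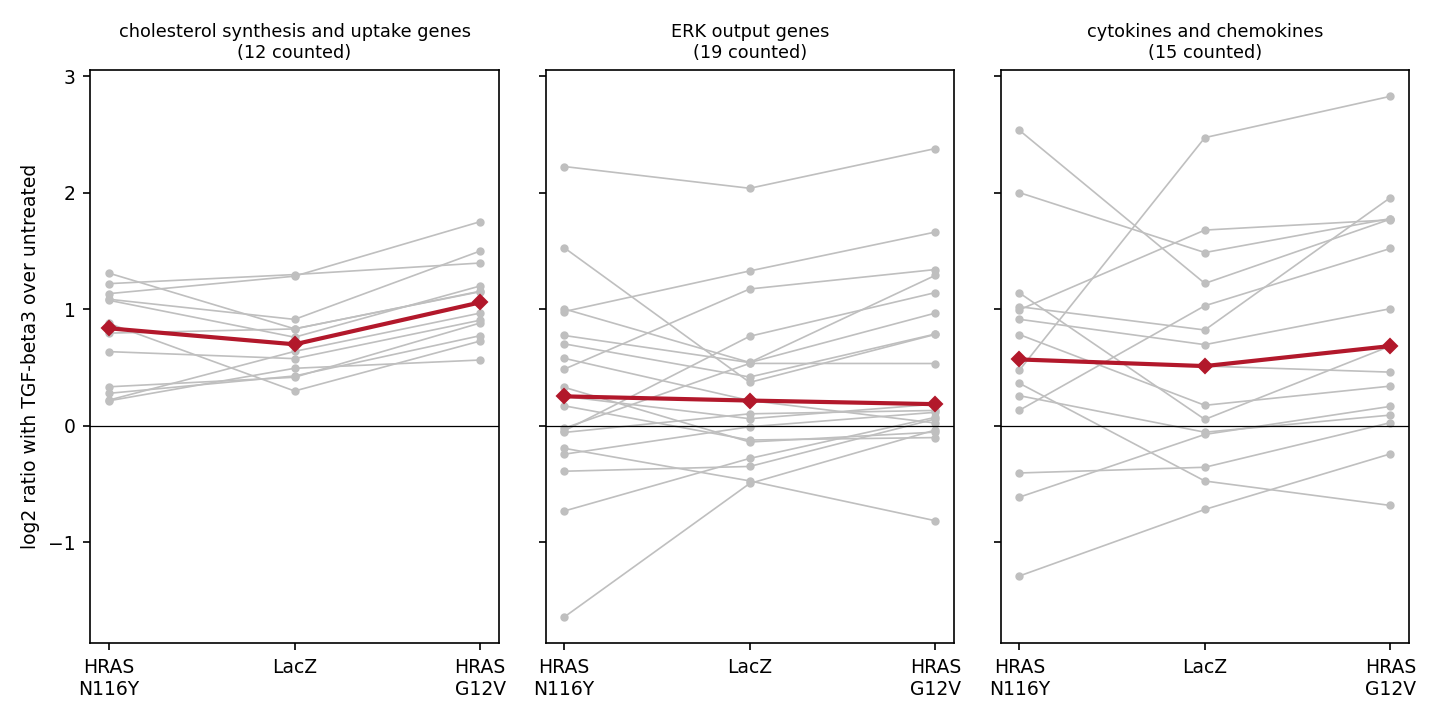
Log2 ratio with TGF-beta3 over untreated in the HRAS N116Y, LacZ and HRAS G12V pairs for the counted members of 3 gene lists; each grey line is a gene and the red line is the median. All 12 cholesterol genes lie higher with HRAS G12V than with LacZ, and 16 of 19 ERK output genes and 13 of 15 cytokine genes do.

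Of 21 counted interferon-stimulated genes 6 were at least 2-fold lower with HRAS G12V, 6 with LacZ and 0 with HRAS N116Y. Over all counted genes 4.54%, 4.36% and 4.95% were lower in the same order. IFIT3 had signals of 1684 and 463 with HRAS G12V, 1776 and 376 with LacZ and 2201 and 2022 with HRAS N116Y. IFIT1 was 3.58-fold lower with HRAS G12V and 3.53-fold with LacZ, and RSAD2 3.27-fold and 3.72-fold. Of 12 counted WNT genes 7 were at least 2-fold higher with HRAS G12V, 5 with LacZ and 6 with HRAS N116Y. Over all counted genes the shares were 5.53%, 4.25% and 4.9%. The list's medians were 1.12, 0.66 and 0.90. The median difference per gene between HRAS G12V and LacZ was only 0.05, and 9 of 12 lay above LacZ, where 51.1% of all counted genes did. WNT7A was at least 5.83-fold higher with HRAS G12V, and WNT9A had log2 ratios of 1.76 with HRAS G12V and 0.58 with LacZ. The Notch genes had 1 of 8 with a response above LacZ, against the same 51.1%. JAG1, a Notch ligand, was 3.18-fold higher with HRAS G12V and 3.87-fold with LacZ, and DLL1, another, 1.34-fold and 2.06-fold. The 3 further probe sets of JAG1 had the opposite order, with response differences of 0.167, 0.245 and 0.202 on the log2 scale. Ribosome biogenesis genes had 3 of 16 above LacZ, against 51.1% of all counted genes, with medians of -0.61 and -0.33. RRS1 was 2.12-fold lower and POLR1B, an RNA polymerase I subunit, 2.02-fold, while UTP20 had log2 ratios of -0.53 with HRAS G12V and 0.48 with LacZ. NOP16 differed by -0.93 on its brightest probe set but by 0.01 on its second. HAS2, a hyaluronan synthase, was 5.74-fold against 3.50-fold higher, with 977 and 666 on the TGF-beta3 arrays, and its second probe set gave log2 ratios of 2.56 and 1.94.

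The brightest genes showed a difference that moved with the scale of the arrays. All 17 ribosomal protein genes had a smaller response with HRAS G12V than with LacZ, by a median of -0.44 on the log2 scale, and GAPDH had signals of 10542 and 10937 with HRAS G12V and 6772 and 11142 with LacZ. The untreated LacZ array held the lowest signals at the top of the scale of the 4 arrays: its 99th percentile was 2923, against 3307 on the LacZ array with TGF-beta3 and 3200 and 3242 on the HRAS G12V arrays. After quantile normalisation the ribosomal protein median was 0.01, with 10 of 17 genes above LacZ. Differences of the brightest genes, such as KRT19, SFN and B2M with -0.48, -0.59 and -0.57, are read against this; what share of them it makes up was not tested.

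Across the 8686 genes counted in both pairs the log2 ratios with HRAS G12V and LacZ correlated at r = 0.87; genes are not independent replicates, and the pairs share no array. Of the 492 genes higher with HRAS G12V, 287 were also at least 2-fold higher with LacZ, which is 58.3% of the HRAS G12V list and 76.1% of the LacZ list. The other 205 had a median LacZ ratio of 0.75; 200 of them went the same way with LacZ. Of the 404 lower genes 261 were shared (64.6% and 67.4%), and the other 143 had a median LacZ ratio of -0.75, of which 138 went the same way. Conversely 90 higher and 126 lower genes of the LacZ pair did not reach 2-fold with HRAS G12V, with medians of 0.72 and -0.71 there. Most genes past 2-fold in a single pair thus stood short of it in the other pair rather than still. Of genes that reached 100 somewhere in the 4 arrays and never lay under the floor, 0 were at least 2-fold apart in opposite directions.

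**Figure D4:**
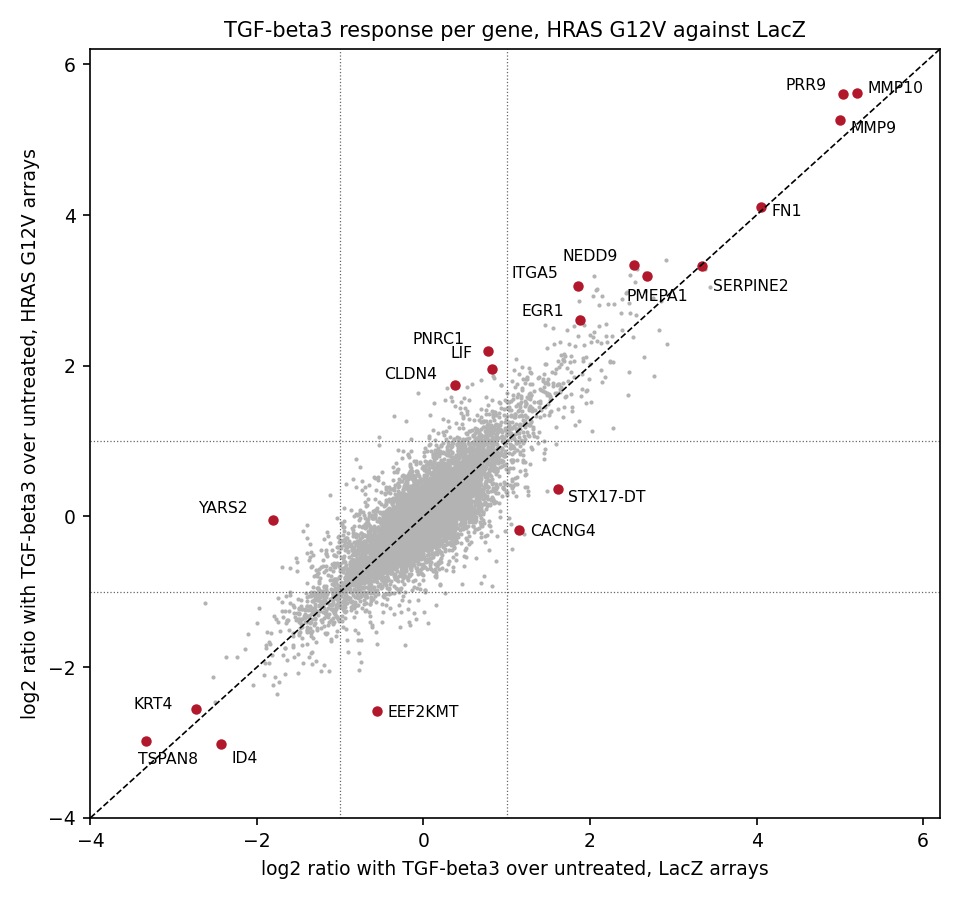
Log2 ratio with TGF-beta3 over untreated per gene in the LacZ pair (horizontal) and the HRAS G12V pair (vertical), for the 8901 genes counted in the HRAS G12V pair; dotted lines mark 2-fold and the dashed line equal responses. Most genes lie along the dashed line, and labelled genes such as CLDN4, PNRC1 and EEF2KMT lie off it.

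A comparison whose gene choice used neither pair was made with the genes that were at least 2-fold apart with HRAS N116Y. Of 9023 genes counted in that pair 442 (4.9%) were higher and 447 (4.95%) lower. The 442 higher genes had median log2 ratios of 1.09 with HRAS G12V and 0.96 with LacZ, and 289 (65.4%) had the larger ratio with HRAS G12V. The 447 lower genes had medians of -0.97 and -1.01, and 188 (42.1%) had the larger fold with HRAS G12V. Among the 8901 genes counted in the HRAS G12V pair 51.1% had the higher log2 ratio with HRAS G12V than with LacZ, with a median difference of 0.006. Beside this, the higher genes responded slightly more with HRAS G12V, by a median of 0.13 on the log2 scale. For the lower genes the median difference was 0.06, and their share lay nearer to that of all counted genes. Neither share was tested.

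Of 9094 genes with a signal of 50 on at least 1 of the 4 arrays, 63 (0.693%) had a response at least 1 log2 unit higher with HRAS G12V than with LacZ and 53 (0.583%) at least 1 lower. Most were dim: 38 of the 63 and 35 of the 53 had no signal of 100 on any of the 4 arrays, and 3 and 0 reached 500. The SD of the difference over genes was 0.49 for genes whose highest signal was 50 to 100 and 0.24 for those with a signal of at least 500. Where a second probe set could be read, it kept the direction for 5 of 8 and 6 of 11 genes, and reached a difference of 1 for 0 of them.

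Where 100 was reached and all 4 signals lay above the floor, YARS2, the mitochondrial tyrosyl-tRNA synthetase, had the most positive difference, 1.76. Its signals were 764 and 219 with LacZ, 224 and 206 with HRAS N116Y and 311 and 302 with HRAS G12V, so the untreated LacZ array alone stood apart. PNRC1, a nuclear receptor coactivator, had signals of 86.5 and 397 with HRAS G12V, 170.3 and 290.4 with LacZ and 181 and 313 with HRAS N116Y, and here the untreated HRAS G12V array was low. CLDN4, ITGA5, ADAMTS6, WNT9A and the copper chaperone CCS, with differences of 1.36, 1.20, 1.14, 1.17 and 1.58, were at least 2-fold higher in the HRAS G12V pair. The others were the RNA helicase DDX54 (1.48), TADA3, a subunit of histone acetyltransferase complexes (1.42), and SLC35H1 (1.18).

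On the negative side EEF2KMT stood first. Its signals were 139 and 23.3 with HRAS G12V, 69.7 and 47.4 with LacZ and 66.8 and 93.6 with HRAS N116Y, a difference of -2.02 against LacZ. The untreated HRAS G12V signal was the highest of the 6 and the treated one the lowest. The homeobox gene PBX2 had a difference of -1.5, with 178 on the LacZ array with TGF-beta3 and 85.3, 112 and 82.3 on the other 3; its further probe sets differed by -0.24 and -0.12. CACNG4, a calcium channel subunit, had 29.4 and 65.3 with LacZ but 253 and 227 with HRAS N116Y and 160.1 and 142 with HRAS G12V. It was thus higher with both RAS vectors and differed by TGF-beta3 mainly with LacZ. ATAD5, which unloads PCNA from DNA, differed by -1.48, the ubiquitin ligase TRIM2 by -1.26, the DNA glycosylase MUTYH by -1.23, the snRNA transcription factor SNAPC4 by -1.18 (0.0918 with a floor of 50), and the RNA genes PITPNA-AS1 and STX17-DT by -1.46 and -1.25. The calcium release channel ITPR2 differed by -1.44, but its second, dim probe set by 0.65.

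**Figure D5:**
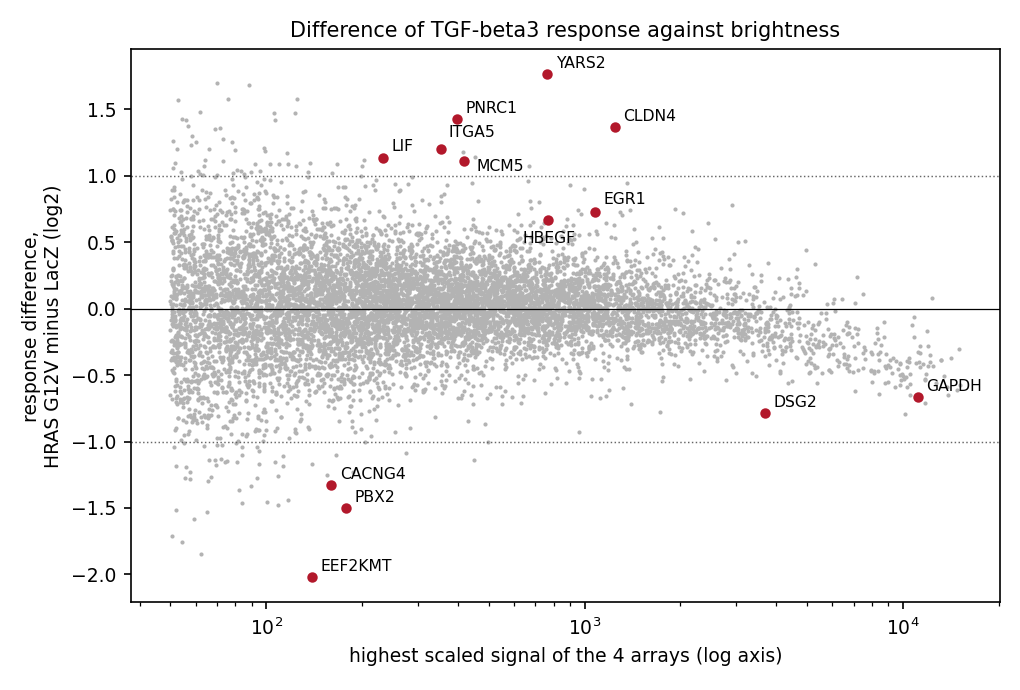
Response difference, HRAS G12V minus LacZ, on the log2 scale (vertical) against the highest scaled signal of the 4 arrays (log axis) per gene; dotted lines mark a difference of 1 either way. The spread is widest for genes under 100, where most differences past 1 lie, and the brightest genes, GAPDH among them, lie below 0.

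Limma was fitted over the 6 adenovirus arrays, with the TGF-beta3 response with HRAS G12V set against the mean response of LacZ and HRAS N116Y. That leaves 1 residual degree of freedom, which holds the difference between LacZ and HRAS N116Y. The estimated prior degrees of freedom were infinite, so a gene's own residual had no weight. The HRAS G12V response itself rests on a single pair, so the fit cannot show that a gene's response differs with HRAS G12V, and its calls are given as a description. Of 8985 genes tested 2 passed as higher (0.0223%) and 2 as lower (0.0223%), and 281 had an unadjusted p under 0.05, fewer than the 449 that evenly spread p-values would give. These p-values are set against the gap between the LacZ and HRAS N116Y responses, pooled over genes. That gap holds any effect of dominant negative RAS as well as noise between arrays, and no group was replicated.

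In EEF2KMT the response with HRAS G12V was -2.54 on the log2 scale against the mean of the others, and lower than with either. The responses with LacZ and HRAS N116Y lay 1.04 apart. CALB1, which encodes the calcium buffer calbindin, had a contrast of 2.13, but its responses with LacZ and HRAS N116Y lay further apart than that, by 3.56. Its signals were 67.9 and 157 with HRAS G12V, 86.7 and 158 with LacZ and 168 and 25.9 with HRAS N116Y, so the HRAS N116Y pair stood apart. EGR1 had a contrast of 1.76 and a gap of 2.07 between the others, and there too the HRAS N116Y pair was the one near no difference. MXRA5, a matrix remodelling gene, had -1.61 and a gap of 2.24, with signals of 274 and 95.0 with HRAS G12V, 244 and 118 with LacZ and 357 and 821 with HRAS N116Y. Against LacZ alone, CALB1, EGR1 and MXRA5 differed by 0.35, 0.73 and -0.49, while most genes lay between -0.67 and 0.70. The calls moved with the processing: with a floor of 50, or with a gene's probe sets averaged, 0 genes passed (218 and 261 at an unadjusted p under 0.05), and after quantile normalisation EEF2KMT alone did.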

How the data were processed

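Biotin-labelled RNA of HaCaT cells was read on Affymetrix arrays. Intensities, deposited for every probe set and not log transformed, came from MAS5 5.0, as the submitters' processing notes list it. Of 54675 probe sets 62 were controls, 41097 had 1 gene symbol in the platform annotation, 1801 had several and 11777 were unnamed here; 41037 non-control probe sets with 1 symbol matched RefSeq's gene table. Each of 19775 genes was read by the probe set that was brightest in mean log2 signal over the 6 adenovirus arrays. Each array was scaled to a 2% trimmed mean of 100, and detection calls were not used. The floor of 20 shrinks the ratio of a dim gene.

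Pairs were described by log2 ratios, counted at 2-fold. Responses were fitted with limma 3.58.1 (R 4.3.3; vector, TGF-beta and HRAS G12V by TGF-beta; trended prior; genes with 50 on at least 2 arrays; Benjamini-Hochberg).

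The members and the 56 gene lists were chosen with earlier results of these data known. Named genes were HRAS; the 12 highest and 12 lowest ratios of the HRAS G12V pair where the brighter array reached 100 and both lay above 20; up to 6 genes each way at or under 20 on 1 array and at least 100 on the other; the 10 largest differences of response each way; genes at least 2-fold apart in opposite directions; up to 4 members of each list by ratio and 2 by difference; all ERK output genes and SMAD feedback inhibitors; and genes past the test. No per-sample columns were left unmapped. The 7 alternatives were other floors (10 and 50), quantile normalisation, averaged probe sets, a filter of 100 or none, and a prior without a trend.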

Additional observations from a re-analysis of the deposited data

Results flagged for a closer look

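In limma's fit across the 6 adenovirus arrays 4 genes passed an adjusted p under 0.05 for the TGF-beta3 response with HRAS G12V against the mean response of LacZ and HRAS N116Y. With 1 pair per vector the fit cannot show that a response differs with HRAS G12V, and the values are a description. The difference was 2.13 for CALB1, 1.76 for EGR1, -2.54 for EEF2KMT and -1.61 for MXRA5 on the log2 scale. For CALB1, EGR1 and MXRA5 the HRAS N116Y pair departed most, with log2 ratios of -2.70, -0.19 and 1.20, and for EEF2KMT the HRAS G12V pair did, at -2.58. The LacZ and HRAS N116Y responses lay 3.56, 2.07 and 2.24 apart for CALB1, EGR1 and MXRA5, more than the difference itself, and 1.04 apart for EEF2KMT. The second probe set of EGR1 gave a response with HRAS G12V that was -1.02 against LacZ, opposite to the 0.73 of the probe set reported. EEF2KMT was read by 1 probe set.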

How the results depend on the processing

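Counts of genes were most open to how a gene's probe sets were combined and to the handling of dim signals. Averaging the probe sets of each gene left 324 genes higher and 255 lower by 2-fold or more in the HRAS G12V pair, against 492 and 404; the other alternatives gave 371 to 540 and 313 to 434. Response differences of at least 1 numbered 26 with a floor of 50, 27 with probe sets averaged, 25 with a filter of 100 and 105 with no filter, against 63. Those of -1 or less numbered 16, 21, 18 and 94, against 53. The test called 4 genes, 2 of them higher. It called 0 with a floor of 50 and 0 with probe sets averaged, 1 after quantile normalisation (0 higher), 2 with a prior without a trend (1 higher), 3 with a filter of 100 (2 higher), 5 with a floor of 10 (2 higher) and 242 with no filter (126 higher); with no filter 0 of the 4 genes named in the test passed. At an unadjusted p under 0.05 there were 218 genes with a floor of 50 and 261 with probe sets averaged. The response difference of SNAPC4 turned from -1.18 to 0.0918 with a floor of 50, as 1 of its signals lay at 20.7. The cause of the other changes was not tested. The share of genes chosen with HRAS N116Y that responded more with HRAS G12V stayed between 64.5% and 68.3% for higher genes and between 38.5% and 43.3% for lower genes. Of 1665 ratios of named genes under the alternatives 1571 moved little and 94 moved more. Among the ratios of at least 2-fold 0 changed direction, and smaller ratios were not checked for this. Of 144 named genes past 2-fold and still counted, 118 remained so with probe sets averaged. Response differences of bright genes depend on the scaling, as given for the ribosomal proteins.

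The fit held vector as a term, so untreated and TGF-beta3 arrays were compared within a vector; the labels carry no replicate numbers for a further block. Leaving out an array was not run: each group holds 1 array. Differences of genes under a signal of 100 are the least certain.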
